A study of Homo sapiens with 6 samples.

Results

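Translation factors bring the small ribosomal subunit to the mRNA, place it on the start codon and move the ribosome along the coding sequence. The 40 genes described here encode elongation factors, initiation factors of the eIF1 to eIF6 families, the repressors of eIF4E, cytoplasmic poly(A)-binding proteins and TPT1. They were chosen by name, and each was represented by 1 RefSeq transcript, 40 of the 15739 transcripts in the data. In total 38 of the 40 had at least 200 listed reverse transcriptase (RT) stops in both libraries made in cells, as did 4580 of all 15367 genes with a symbol. The 2 others were EIF3C, a subunit of the eIF3 complex, and EIF4A1, a helicase of the cap-binding complex.

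RT-stop profiling records the nucleotide at which RT halts on an mRNA fragment, and U2OS, a human osteosarcoma cell line, was used throughout. Dimethyl sulfate (DMS) methylates unpaired A and C, at which RT then stops. RT can also stop at the 3′ end of a folded RNA G-quadruplex (rG4), a 4-stranded structure of G runs held together by K+. According to the paper, DMS also methylates G that is not protected within an rG4. Such G can no longer take part in an rG4, which lowers RT stopping there. In the DMS libraries, stops at an rG4 thus depend on protection of its G during DMS treatment. Poly(A)+ mRNA was the starting material in each of 6 libraries, with 1 library per condition. For 2 libraries the mRNA was not treated with DMS and RT was carried out in 150 mM K+ or, according to the labels, 150 mM Na+. For 2 others it was refolded and methylated in vitro in 150 mM K+ or Li+ before RT in 150 mM K+, and the last 2 came from cells treated with 8% DMS for 5 min, either unstressed or starved for 2 h in a buffered salt solution with Ca and Mg, with RT in 150 mM K+.

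No condition was replicated, so no difference between libraries was tested. The intervals given are 95% intervals that cover counting error, or, for a median, the spread between genes, and no variation between cultures. The listed stops numbered from 12999691 in unstressed cells to 35371061 in the library without DMS labelled K+, and 24014417 in starved cells. Only nucleotides with at least 3 stops were listed. The labels of the libraries without DMS contradict the names of their files, so these are called the library labelled K+ and the library labelled Na+. Of the genes that mark the cell line, VIM, SPARC, COL1A1, FN1 and THY1 were present in every library at 27.2 to 3827 stops per 1000000 listed stops of the library (SPM, the unit used throughout), while RUNX2 had 4.47 to 17.3 SPM and COL1A2 and ALPL were at or near 0. Of the epithelial genes KRT8 and KRT18 were present, EPCAM had at most 2.29 SPM, and CDH1 and KRT19 were at or near 0, and blood and neural markers other than TUBB3 had at most 10.1 SPM. After starvation ASNS, DDIT3, CHAC1 and DDIT4, which amino acid shortage is known to induce, had a larger share than in unstressed cells, as did SESN2 at 2.92 and 5.29 SPM, and ATF4 and TRIB3 had a smaller share. For ATF4 the log2 ratio was -0.59, and 1.13 against genes of like GC content.

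Starvation restrains translation by familiar routes. The kinase mTOR, when nutrients are scarce, leaves the eIF4E-binding proteins (EIF4EBP1 and EIF4EBP2) free to hold eIF4E, and phosphorylation of eIF2α (EIF2S1) limits the initiator tRNA complex. Many translation factor mRNAs carry a 5′ terminal oligopyrimidine (TOP) tract, a C at the cap followed by pyrimidines, through which mTOR and LARP1 control their translation. Of the 40 genes, 11 were listed as core TOP mRNAs: EEF1A1, EEF1B2, EEF1D, EEF1G, EEF2, EIF3E, EIF3F, EIF3H, EIF4B, PABPC1 and TPT1.

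The starts of 7 annotated transcripts show the TOP tract, or its absence, in the mRNAs whose values are described below. They are given 5′ to 3′ from GENCODE on GRCh37, with the pyrimidines that open the transcript in capitals.
EEF1A1, minus strand, chr6:74230736-74230755: CTTTTTCgcaacgggtttgc
EEF2, minus strand, chr19:3985442-3985461: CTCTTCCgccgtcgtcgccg
TPT1, minus strand, chr13:45915299-45915318: CTTTTCCgcccgctcccccc
EIF3F, plus strand, chr11:8008884-8008903: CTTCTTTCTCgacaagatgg
EIF4B, plus strand, chr12:53400240-53400259: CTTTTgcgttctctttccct
EEF1G, minus strand, chr11:62341344-62341363: actttgcggcagcgccgaga
EIF4G1, plus strand, chr3:184032290-184032309: gcagatcgcccggcgcggct
Taken as a C followed by at least 4 more pyrimidines at the annotated start of the transcript, read on its own strand only, the tract was present in 9 of the 11 core TOP mRNAs, in 8 of the 29 others and in 304 of 4539 matched genes (6.70%). EEF1B2 and EEF1G did not have it at the annotated start.

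The G-rich stretches of 5 regions of the same mRNAs are shown because RT stopped there in one of the libraries without DMS. Each is 28 nt of exon sequence on the mRNA strand that ends at its strongest stop, with runs of at least 2 G in capitals.
EEF2, 3′ UTR, exon 15 of 15, minus strand, chr19:3976289-3976316: ccGGtcGGGGaGGGGGaGGcGGGatGGG
EIF4G1, 3′ UTR, exon 33 of 33, plus strand, chr3:184052941-184052968: aatttGGtgtgtcttGGGGtGGGGaGGG
EIF4H, 3′ UTR, exon 7 of 7, plus strand, chr7:73609641-73609668: ctgcGGttGGGaGGGaatGGGGcgtGGG
EIF4B, coding sequence, exon 7 of 15, plus strand, chr12:53421591-53421618: ccGGtatcGGGatGGGtatcGGGatGGG
PABPC4, 5′ UTR, exon 1 of 16, minus strand, chr1:40041627-40041654: GGcGGGGctcGGGGtGGtGGGGGGcGGG

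The first question was how much of each library these mRNAs took. Together the 40 genes held 4.02% of the listed stops in unstressed cells (95% Wilson interval 4.01 to 4.03%) and 5.04% in starved cells (5.03 to 5.05%). In the 4 other libraries they held 3.97 to 4.22%. EEF1A1, which carries aminoacyl-tRNA to the ribosome, made up 39.8% of these stops in unstressed and 52.9% in starved cells. Without EEF1A1 the share was 2.42% in unstressed and 2.37% in starved cells.

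Among the 38 genes past the minimum, 10 had at least a 1.5-fold higher share in starved than in unstressed cells, and 13 had at least a 1.5-fold lower share. Over all 4580 genes, 27.8% were higher and 41.1% were lower by this measure. The median log2 ratio of shares, starved over unstressed, was -0.11 over the 38 genes (interval -0.77 to 0.37), with a range of -3.96 to 1.57, and -0.21 over all genes. From stops at G and U alone these medians were 0.07 and 0.24, with 11 members higher (42.6% of all genes) and 15 lower (34.5%), so the sign of both and their order depended on the bases counted. After the ratios were centred on the median of all genes, 12 were higher and 12 were lower, beside 34.5% and 36.2% of all genes. A share is relative to the other mRNAs of its library, and fewer molecules of an mRNA per cell cannot be told apart from fewer cells with it.

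**Figure D1:**
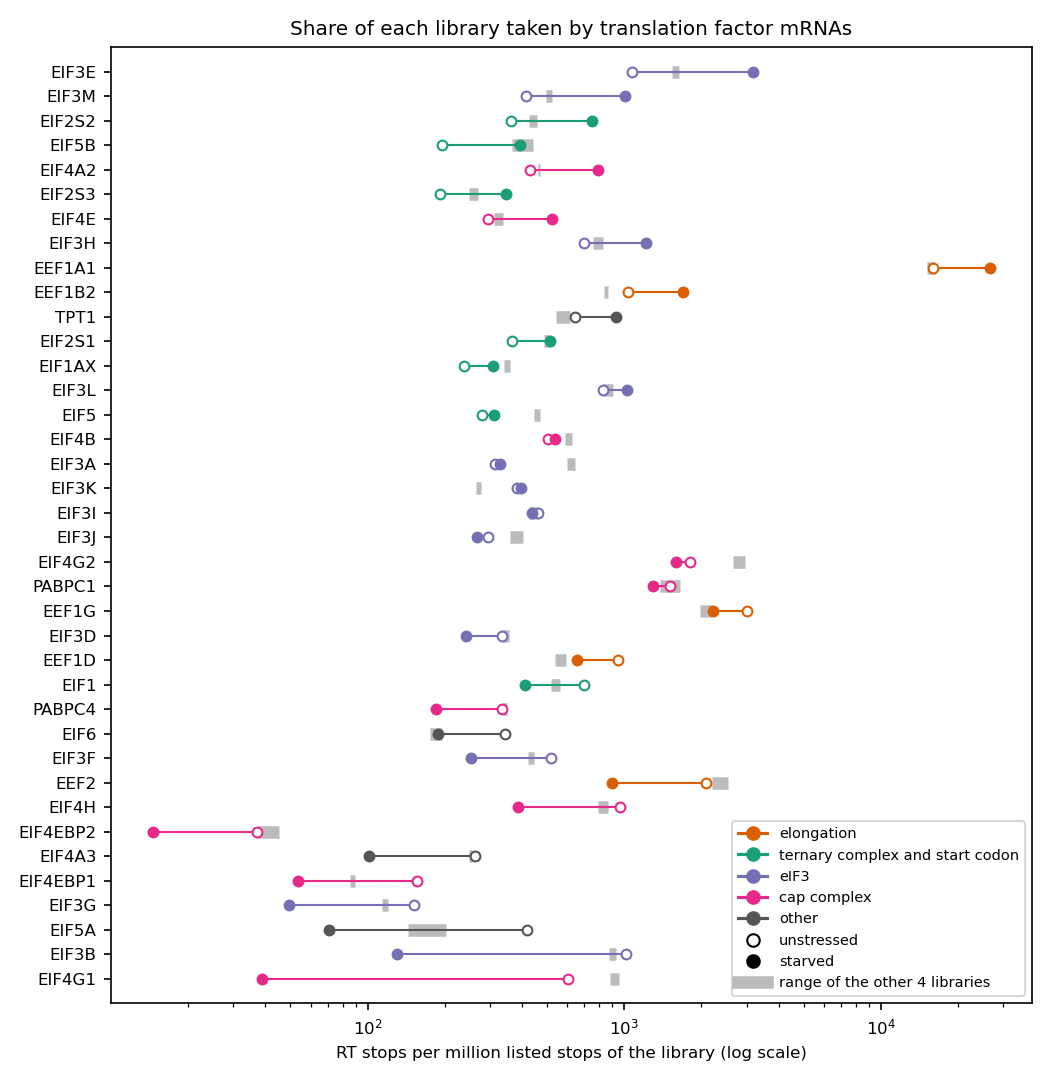
Share of the library in SPM (x axis, log scale) for the 38 genes past the minimum, ordered by the ratio of starved to unstressed. Open points are unstressed cells, filled points starved cells and grey bars the range of the 4 other libraries. EIF3E is at the top (1075 and 3185 SPM) and EIF4G1 at the bottom (604 and 38.8), and the grey bars are short beside most of these differences.

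The elongation factors differed in direction on the share of the library, although all 5 lay above the genes of like GC content described below. In the order library labelled K+, library labelled Na+, in vitro K+, in vitro Li+, unstressed and starved, which is kept below, EEF1A1 had 15238.5, 15055.8, 16180.6, 15116.7, 16024 and 26643.2 SPM. EEF1B2, which with EEF1D and EEF1G forms the complex that recharges EEF1A with GTP, had 855, 843, 868, 831, 1038 and 1695. Their log2 ratios of starved to unstressed were 0.73 (0.73 to 0.74) and 0.71 (0.68 to 0.74), and in both the starved library was the highest of the 6.

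EEF1D had 537, 552, 595, 558, 947 and 653 SPM and EEF1G had 1975, 2001, 2196, 1969.8, 3006 and 2213. Both were highest in unstressed cells, and their starved values lay nearer the 4 libraries not treated in cells. EEF2, which translocates the ribosome, had 2198, 2532, 2478, 2303, 2088 and 899. Its share was 2.32-fold lower in starved than in unstressed cells, a log2 ratio of -1.22 (-1.24 to -1.19), and only the starved library stood apart.

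Of 7 genes for the initiator tRNA complex and start codon selection, 3 were at least 1.5-fold higher (27.8% of all genes) and 1 was at least 1.5-fold lower (41.1%). Their median log2 ratio was 0.49, but it was -0.43 against genes of like GC content, a measure described below. By that measure 1 was at least 1.5-fold higher (25.0% of all genes) and 1 at least 1.5-fold lower (25.2%). EIF2S2, the β subunit of eIF2, had 454, 456, 436, 427, 361 and 746 SPM. Its γ subunit, EIF2S3, had 269.9, 258, 258, 249, 192 and 345. In both, the unstressed library was the lowest and the starved library the highest, with log2 ratios of 1.05 (1.00 to 1.09) and 0.85 (0.78 to 0.91). The α subunit EIF2S1 had a log2 ratio of 0.49, EIF1AX of 0.37 and EIF5 of 0.15, and against genes of like GC content these were -0.45, -0.89 and -0.51.

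EIF5B, the GTPase that joins the ribosomal subunits, had 439, 429.7, 365, 369, 195 and 391 SPM. Its log2 ratio was 1.00 (0.94 to 1.07), but the starved value lay within the range of the other 4 libraries and the unstressed value was the one that stood apart. EIF1, which holds the scanning ribosome open for start codon choice, was the only gene of this group at least 1.5-fold lower, at 697 in unstressed and 409.7 in starved cells. Against genes of like GC content EIF1 had -0.43, and EIF1AX was the gene at least 1.5-fold lower. With length matched as well EIF1 had -0.99 and EIF1AX -0.78, both at least 1.5-fold lower.

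In the eIF3 complex, which binds the small subunit, 3 of 12 measured genes were at least 1.5-fold higher and 3 were at least 1.5-fold lower, beside the same shares of all genes. EIF3E had 1629, 1590.1, 1633, 1529, 1075 and 3185 SPM, a log2 ratio of 1.57 (1.54 to 1.59). EIF3M had 526, 503, 522, 498, 415 and 1007, a log2 ratio of 1.28 (1.24 to 1.32). EIF3H had 809, 797, 827, 754, 699 and 1212. In all of these the starved library was the highest and the unstressed library the lowest.

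EIF3B, a core scaffold subunit, had 870.5, 889, 928, 929, 1018 and 130.2 SPM, and its log2 ratio was -2.97 (-3.02 to -2.91), or 7.82-fold lower in starved cells. The RNA-binding subunit EIF3G had 114, 120.3, 117, 115, 152 and 49.4, a log2 ratio of -1.62 (-1.73 to -1.52). EIF3F had 428, 431, 446, 423, 518 and 254. For these the 5 other libraries lay close together and the starved library was the lowest. Other subunits barely differed between the cells, among them EIF3K with a log2 ratio of 0.05, EIF3A with 0.06, EIF3I with -0.08 and EIF3J with -0.14. EIF3L and EIF3D had log2 ratios of 0.31 and -0.47, also within 1.5-fold.

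The cap-binding complex held the largest difference. EIF4G1, the scaffold that joins the cap-binding protein, the helicase and PABPC1, had 884, 951, 899.6, 878, 604 and 38.8 SPM. The counts behind the last pair were 7849 (unstressed) and 931 (starved), and the share was 15.6-fold lower after starvation, a log2 ratio of -3.96 (-4.06 to -3.86). Its relative EIF4G2, which lacks the eIF4E-binding part, had 2684, 2644, 2944, 2750.4, 1809 and 1596, a log2 ratio of -0.18. EIF4G2 was lower in both libraries from cells than in the other 4 and differed little between them.

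Both measured repressors of eIF4E were lower in starved cells. EIF4EBP1 had 85.7, 89.7, 86.6, 85.7, 156 and 53.4 SPM, and EIF4EBP2 had 40.8, 37.0, 43.7, 45.3, 37.1 and 14.6. Their log2 ratios were -1.55 (-1.65 to -1.45) and -1.35 (-1.55 to -1.15). EIF4E itself, the protein that binds the cap, had 338, 329, 324, 310.2, 294 and 523, a log2 ratio of 0.83 (0.78 to 0.88), so its share differed in the opposite direction. This contrast did not hold against genes of like GC content, where EIF4EBP1 had 0.59, EIF4EBP2 -1.47 and EIF4E -0.49. EIF4A2, a paralog of EIF4A1, had 471, 461, 468, 463, 428 and 792, a log2 ratio of 0.89.

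EIF4H, a cofactor of the helicase, had 798, 847, 865, 790.0, 965 and 386 SPM, a log2 ratio of -1.32. The related cofactor EIF4B had 609.8, 628, 599.7, 587, 503 and 537. PABPC1, the cytoplasmic poly(A)-binding protein, had 1438, 1374, 1656, 1535, 1505 and 1289, and its paralog PABPC4 had 348, 349, 338, 346, 333 and 185, a log2 ratio of -0.84. EIF4B and PABPC1 changed by less than 1.5-fold.

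Among the remaining genes, EIF5A, which helps the ribosome through stretches such as prolines, had 144, 158, 203, 193, 419.5 and 71.1 SPM, a log2 ratio of -2.56 (-2.64 to -2.48). TPT1 had 599.9, 589.8, 615, 540.5, 644 and 929, a log2 ratio of 0.53. EIF4A3, a helicase of the exon junction complex, and EIF6, which keeps the ribosomal subunits apart, had log2 ratios of -1.37 and -0.87.

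Reads that match several places were left out by the authors, and some of these mRNAs have near-identical copies. Stops were listed at 30 nt of the 2910-nt EIF3C mRNA and 19 nt of the 1758-nt EIF4A1 mRNA in the library labelled K+, and at 298 of 1271 nt of EIF5A (23.4%). EIF3C had 1.69 SPM in unstressed and 0.25 in starved cells, and EIF4A1 had 3.92 and 7.87. The values of these 3 genes are therefore uncertain. Stops were also listed at only 49.4% of EEF1A1, the member with the most stops. The same figure was 44.9% for EEF1D, 31.4% for EIF1AX and 5.25% for EIF4EBP2, against 93.5% for EEF2. EIF4EBP2 averaged 0.56 stops per nucleotide in the library labelled K+, below the listing minimum of 3, and EEF2 24.6. Its sparse listing thus also reflects low depth. The reads lost to several matches were not measured here. The values of EEF1A1, EEF1D, EIF1AX and EIF4EBP2, and the share that rests on EEF1A1, may therefore be affected too.

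The base composition of the transcript moved with the ratio of shares. Across the 38 genes, Spearman's rho between GC content and the log2 ratio was -0.78, and across 4539 matched genes it was -0.77. These are descriptions across genes that share the same pair of libraries. Of 17 genes with less than 45% GC, 9 were at least 1.5-fold higher (54.7% of all genes of that class) and 1 was at least 1.5-fold lower (6.86%). Of 16 with at least 50% GC, none was at least 1.5-fold higher (2.88% of all genes of that class) and 11 were at least 1.5-fold lower (79.8%). Members were thus near the background of their GC class. Against the mean of the libraries without DMS, rho of the share with GC was 0.72 in unstressed and -0.45 in starved cells. The part of GC content in the ratios was not tested.

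**Figure D2:**
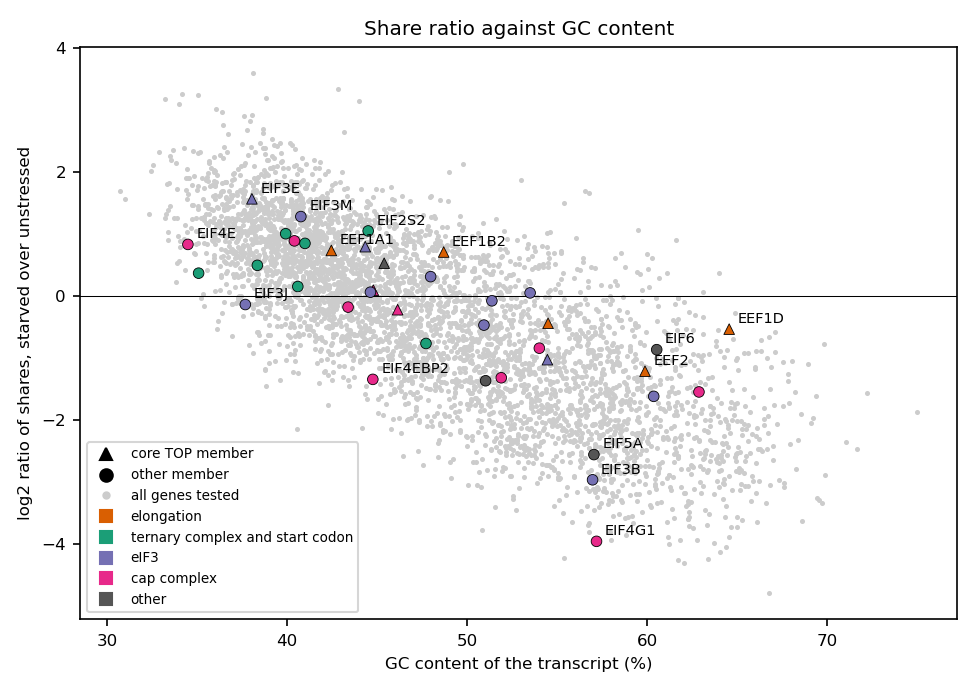
The log2 ratio of shares, starved over unstressed (y axis), against the GC content of the transcript in percent (x axis). Grey points are all matched genes, triangles core TOP members and circles other members, coloured by role. The ratio declined with GC content among members and all genes alike, with EIF4G1 (-3.96) below and EEF1D (-0.54) above the genes of similar GC content.

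Each gene was therefore also set against the genes within 2 percentage points of its GC content, an alternative chosen after the data were seen. By this measure 12 of the 38 genes were at least 1.5-fold higher (25.0% of all genes) and 6 were at least 1.5-fold lower (25.2%), and the median was 0.26 (-0.26 to 0.58). EIF4G1 remained the lowest, at -2.21 against its neighbours, followed by EIF4EBP2 at -1.47, EIF3B at -1.25 and EIF3J, a loosely bound eIF3 subunit, at -1.14. The highest were EEF1D at 1.71, EIF3K at 1.29, EEF1B2 at 1.20 and EIF6 at 1.13. With length matched as well, EIF3K had 0.22 and EEF1B2 0.30, both within 1.5-fold, while EEF1D had 1.97 and EIF6 0.91. Of the 23 members at least 1.5-fold higher or lower on the share, 8 were called the same way against genes of like GC content, and 5 also with length matched as well. These 5 were EIF2S2, which was higher, and EIF3B, EIF4EBP2, EIF4G1 and EIF5A, which were lower. How many of all genes kept their call or turned direction was not counted. These counts therefore describe the members alone and do not set them apart from other genes.

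The direction turned against genes of like GC content in 7 of the 23. EEF2 went from -1.22 to 0.69, EIF6 from -0.87 to 1.13 and PABPC4 from -0.84 to 0.47, and with length matched as well they had 1.06, 0.91 and 0.96. EIF4E went from 0.83 to -0.49, and to -0.63 with length matched as well. EIF4EBP1 went from -1.55 to 0.59, EIF3G from -1.62 to 0.33 and EIF3F from -1.03 to 0.35, but with length matched as well they had -0.02, -0.03 and -0.05. Others kept the direction and were within 1.5-fold of genes of like GC content. EIF3E, the highest on the share, had 0.58, EIF5B 0.22, EIF2S3 0.24, EIF4A2 0.19 and EEF1A1 0.28, and EIF4H had -0.26. With length matched as well EIF3E had 0.32, while EIF4A2 at -0.04 and EIF4H at 0.10 lay near 0.

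The core TOP mRNAs had a median log2 ratio of 0.09 (-1.03 to 0.79) and the 27 other members -0.14 (-1.32 to 0.37), a difference of 0.23 (-0.999 to 1.61). Against genes of like GC content the medians were 0.58 and -0.09, and 9 of the 11 core TOP mRNAs and 13 of the 27 others lay above 0, as did 2271 of 4538 of all genes. With length matched as well, the medians were 0.30 and -0.03, and 8 of the 38 members were at least 1.5-fold higher (20.6% of all genes) and 8 at least 1.5-fold lower (19.8%). The 83 ribosomal protein mRNAs, which are also TOP mRNAs, had a median of 0.77, of 1.245 with GC matched and of 0.29 with GC and length matched. At least 1.5-fold higher were 52 of the 83 (27.8% of all genes), 74 with GC matched (25.0%) and 23 with GC and length matched (20.6%). Their share of the library was 14.4% in unstressed and 22.4% in starved cells and 10.1 to 10.7% in the 4 others. The interval of the difference between TOP and other members included 0 under each of these measures.

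Of 46 other genes of the pathway, 31 passed the minimum, 11 were at least 1.5-fold higher (27.8% of all genes) and 8 at least 1.5-fold lower (41.1%), with a median log2 ratio of -0.03. EIF2B3 and EIF2B5, subunits of the exchange factor that recharges eIF2 with GTP, had log2 ratios of 1.05 and -2.53. LARP1, which binds the TOP tract, had -1.26. ABCE1, which recycles ribosomes, had 1.32, and the termination factors ETF1 and GSPT1 had -0.29 and -0.64. Among the mitochondrial factors, TUFM had -2.47 and MTIF2 had 2.19. Against genes of like GC content, 7 were at least 1.5-fold higher (25.0% of all genes) and 7 at least 1.5-fold lower (25.2%). By that measure LARP1 had -0.25 and ABCE1 0.15, both within 1.5-fold, whereas ETF1 at -0.79, GSPT1 at -1.22 and TUFM at -0.70 were lower. EIF2B3 had 1.37, EIF2B5 -1.37 and MTIF2 1.64.

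The second question was how much of the RT stopping was at A or C, the bases at which DMS adds stops. Without DMS the median share of stops at A or C over the 38 genes was 52.3% with the K+ label and 51.4% with the Na+ label. The in vitro libraries had 81.4% (K+) and 80.4% (Li+), unstressed cells 88.8% and starved cells 77.6%. All 38 genes had a lower share in starved than in unstressed cells, as did 98.7% of all genes. The median difference was -11.3 percentage points (-12.5 to -10.1), beside -9.80 over all genes.

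**Figure D3:**
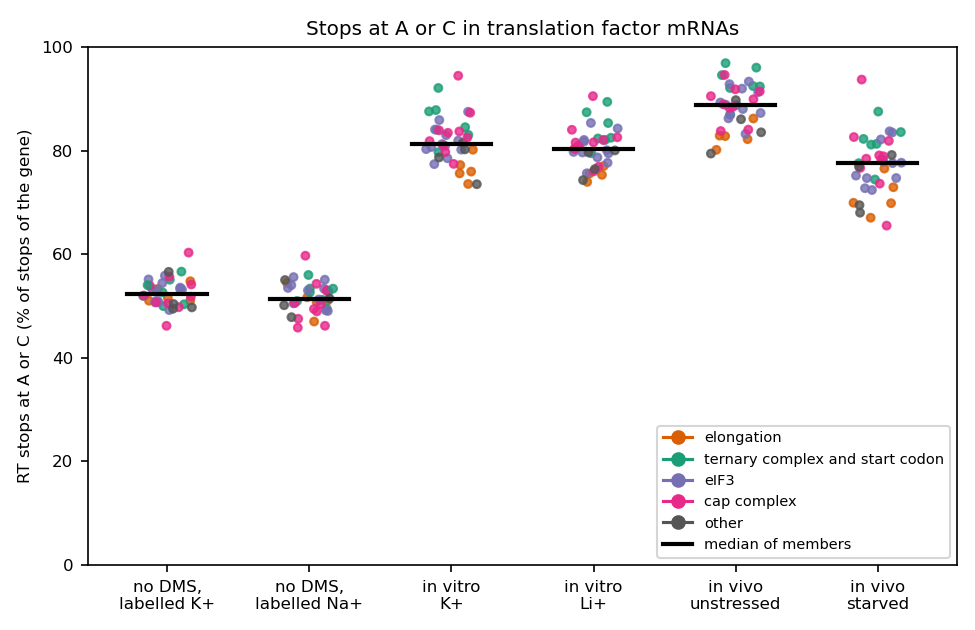
Percent of the RT stops of each gene that fell at A or C (y axis, from 0 to 100%) in each of the 6 libraries, for the 38 genes past the minimum, coloured by role. Black lines are medians, 52.3, 51.4, 81.4, 80.4, 88.8 and 77.6% from left to right. The unstressed library is the highest, and the starved library lies below the in vitro libraries.

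The decrease was mostly at C. Stops at C made up a median 22.4% of the stops of a gene in unstressed and 14.1% in starved cells, and stops at A 65.2% and 63.2%, whereas stops at G were 8.73% and 16.7%. Counted by base, the median difference was -8.54 points at C and -2.88 points at A. The starved library was the deeper one, and nucleotides with few stops are less often listed in a shallower library. With both libraries thinned to the same total and the listing minimum applied again, the median difference was -9.09 points, and with the unlisted stops estimated it was -9.48 points. Over all genes these were -7.40 and -10.01 points, so whether members differed more than all genes depended on the treatment of low counts.

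The largest differences were in EIF4G1, at 53.9, 50.6, 82.5, 80.8, 84.0 and 65.5% of stops at A or C in the 6 libraries, in EIF3M, at 53.1, 53.0, 81.9, 80.1, 92.8 and 77.7%, and in EIF4A2, at 46.2, 45.8, 79.7, 76.9, 88.2 and 73.6%. These were differences of -18.5, -15.2 and -14.6 points. The smallest were in EIF4EBP2, at 50.7, 47.5, 94.5, 90.5, 94.6 and 93.7%, in PABPC1, at 60.3, 59.7, 81.8, 81.6, 88.9 and 81.9%, and in EIF4H, at 50.5, 46.2, 77.4, 76.0, 83.8 and 76.7%. In EIF4EBP2 the intervals of the 2 libraries from cells, 92.2 to 96.3% and 90.7 to 95.8%, overlapped, and stops were listed at 5.25% of its nucleotides in the library labelled K+. The other member differences were larger than counting error.

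By region the medians differed in the same direction. In 37 coding sequences with at least 100 stops in both libraries the median share at A or C was 91.5% in unstressed and 79.4% in starved cells. In 36 3′ UTRs it was 86.6% and 76.2%, and in 11 5′ UTRs 83.2% and 72.5%.

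To follow A/C stops along the mRNAs, the stops per A or C nucleotide of the coding sequence were divided by those of the 3′ UTR. The median log2 of this ratio over 37 genes was 0.05 and 0.06 in the libraries without DMS. The in vitro libraries had 0.07 (K+) and 0.15 (Li+), but unstressed cells had -1.18 and starved cells -0.83. In unstressed cells 35 of the 37 genes lay below their in vitro K+ value (93.4% of all genes), and in starved cells all 37 did (96.5%). Stops at G or U, which DMS does not add, had medians of 0.09 in vitro in K+, -1.91 for unstressed cells and -0.72 for starved cells. The bias toward the 3′ UTR in cells was thus also present at bases other than A and C, and its source was not tested.

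**Figure D4:**
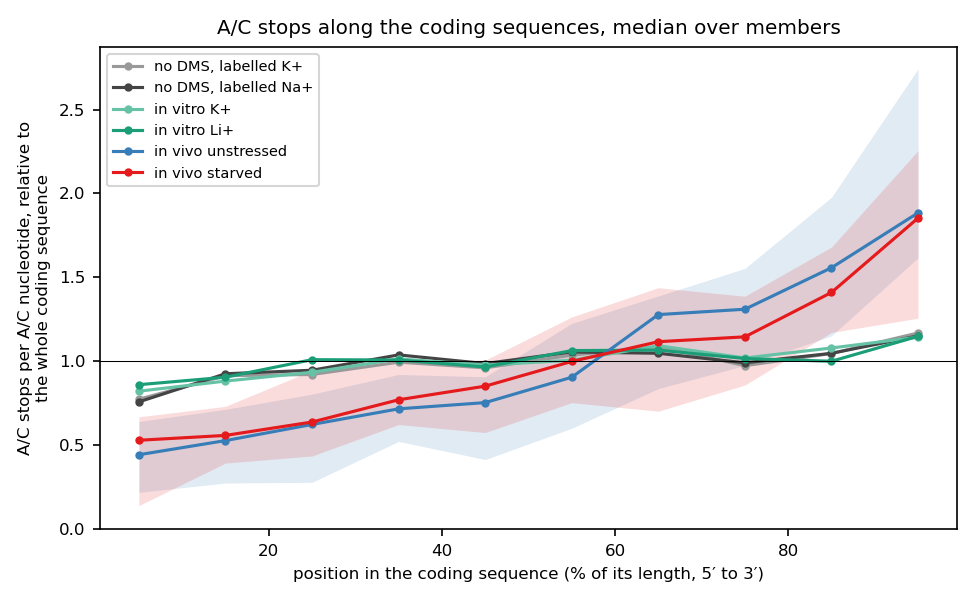
A/C stops per A or C nucleotide in 10 equal bins of the coding sequence, relative to the whole coding sequence (y axis), against the position from 5′ to 3′ in percent (x axis), as the median over 37 genes in each library. Shading marks the quartiles in cells. Both libraries from cells climb from under 0.6 in the first bin to over 1.8 in the last, while the 4 others stay between 0.75 and 1.2.

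Along the coding sequence itself the first of 10 equal bins had a median relative density of 0.44 in unstressed and 0.53 in starved cells, against 0.76 to 0.86 in the other libraries. The last bin had 1.88 and 1.85, against 1.14 to 1.17. In these medians the libraries from cells differed more from the other 4 libraries than from each other. Single genes differed more, since the last bin over the first was 5.97 in unstressed and 2.68 in starved cells for EEF2, and 3.22 and 12.3 for EIF4H.

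Between starved and unstressed cells, the ratio of coding sequence to 3′ UTR was at least 1.5-fold higher in 10 of the 37 genes (23.6% of all genes) and at least 1.5-fold lower in 6 (20.0%). The median log2 change was 0.11 (-0.12 to 0.47), beside 0.05 over all 3157 genes. The greatest gain in the coding sequence was in EIF5B, with log2 ratios of 0.82, 0.75, 0.36, 0.59, -1.61 and 0.07 in the 6 libraries, a change of 1.68 (1.54 to 1.83). EIF2S3 followed with 0.85, 0.82, 0.76, 0.75, -2.12 and -0.50, a change of 1.62 (1.44 to 1.80). EIF4E had 0.02, 0.03, -0.03, 0.02, -1.96 and -0.83, a change of 1.13 (0.96 to 1.31). In each, starved cells lay between unstressed cells and the 4 other libraries, and the same ratio of stops at G or U changed by 2.43, 1.34 and 3.61.

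The opposite was seen in EIF4G1, at 0.35, 0.29, 0.37, 0.48, -2.34 and -3.65, a change of -1.31 (-1.55 to -1.07). EEF1B2 had -0.42, -0.30, 0.09, -0.13, 0.49 and -0.53, a change of -1.02 (-1.15 to -0.88), and EIF3M had 0.45, 0.60, 1.20, 0.71, 1.46 and 0.58, a change of -0.88 (-1.14 to -0.61). EEF1B2 and EIF3M were above the in vitro libraries in unstressed cells and below them in starved cells. At G or U these 3 genes changed by -1.67, -1.61 and -0.40, in the same direction.

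In the 5′ UTR, 22 genes had at least 20 A/C stops in both libraries from cells. The median log2 change of the ratio of 5′ UTR to coding sequence was -0.34 (-0.53 to 0.53), beside -0.37 over 801 genes. In unstressed cells 19 of the 22 lay below their in vitro K+ value (67.5% of all genes) and in starved cells 22 did (90.3%). The change was at least 1.5-fold higher in 4 of the 22 (8.24% of all genes), namely EEF1A1, PABPC4, EIF5 and PABPC1, and at least 1.5-fold lower in 4 (34.8%), namely EIF1AX, TPT1, EEF1D and EIF4G2. EIF1AX is, with EIF1, a factor of start codon scanning, and EIF5 activates the GTPase of eIF2.

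EEF1A1 had the largest gain. The log2 ratio of its 63-nt 5′ UTR to its coding sequence was 0.63, 0.55, 0.22, 0.30, -1.54 and -0.23, a change of 1.30 (1.24 to 1.37) from unstressed to starved cells. Of all its stops, the 5′ UTR took 4.73, 4.64, 4.05, 4.17, 1.09 and 2.54%, with intervals of 1.04 to 1.13% in unstressed and 2.50 to 2.58% in starved cells. The unstressed library was the lowest of the 6, and at G or U the change was 1.49, so it was not particular to A and C.

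Not all TOP mRNAs did so. In TPT1 the 5′ UTR took 9.34, 9.67, 10.6, 10.5, 10.6 and 6.37% of the stops, and the ratio changed by -1.24 (-1.39 to -1.08). In EEF1D it took 5.74, 5.70, 6.66, 5.90, 7.96 and 4.76%, a change of -0.93 (-1.10 to -0.76). EEF2 had 3.70, 3.40, 4.09, 4.10, 1.36 and 1.66%, and its change of 0.21 had an interval, -0.03 to 0.46, that included 0. For the 5′ UTR of TPT1 and EEF1D the starved library was the lowest, whereas in EEF2 both libraries from cells lay below the others. The 8 core TOP mRNAs measured had changes from -1.24 to 1.30.

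The third question was where RT stopped strongly at G. The enrichment E is the stop count of a nucleotide divided by the mean of its transcript, and a strong stop has an E of at least 10 where the transcript averages 1 stop per nucleotide or more. Without DMS, members had 17 strong stops at G with the K+ label and 54 with the Na+ label. There were 4 in each in vitro library, 11 in unstressed and 17 in starved cells. In 3′ UTRs lay 11, 35, 3, 3, 10 and 15 of these, in the order of libraries used above. E is relative to the whole transcript, whereas stops in cells were weighted toward the 3′ UTR as described above. The part of this weighting in the counts was not tested. By the deposited ratio, whose mean is over G alone, there were 102 in unstressed and 50 in starved cells, so the order of the cells depended on the mean used. With a transcript minimum of 0.25 stops per nucleotide, the counts by E were 11 in unstressed and 42 in starved cells. The strong stops by E at the minimum of 1 fell in 5 of 37, 14 of 37, 3 of 37, 2 of 37, 8 of 33 and 8 of 36 members. The background over all transcripts was 15.5, 44.1, 9.87, 6.04, 10.1 and 13.1% in the same order.

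Of the 54 strong stops in the library labelled Na+, 38 were at least 2-fold stronger than in the library labelled K+, while 1 of the 17 in the library labelled K+ was at least 2-fold stronger there. K+ is the ion that holds rG4s together, so the labels give the opposite of the known preference, whereas the file names, with the ions exchanged, do not. The 38 stops merged into 21 regions in 11 genes, of which 3 were in 5′ UTRs, 7 in coding sequences and 11 in 3′ UTRs. Stops at least 2-fold stronger in one library, and their regions, were not counted over all transcripts. These numbers therefore do not set members apart from other mRNAs.

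The strongest lay 263 nt after the stop codon of EEF2, in the sequence shown above with 4 runs of at least 3 G. Over 7 nt, 302 stops at G were listed with the K+ label and 10037 with the Na+ label. The in vitro libraries had 610 (K+) and 540 (Li+), unstressed cells 148 and starved cells 575. As a share of all stops at G in EEF2, these were 1.31, 31.2, 5.76, 3.91, 3.75 and 10.6%. Starved cells (9.79 to 11.4%) were above unstressed cells (3.20 to 4.38%) and both in vitro libraries, though EEF2 took a smaller share of the starved library. At its strongest nucleotide E was 2.68 with the K+ label and 147 with the Na+ label, and starved cells at 29.9 exceeded unstressed cells at 5.16.

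**Figure D5:**
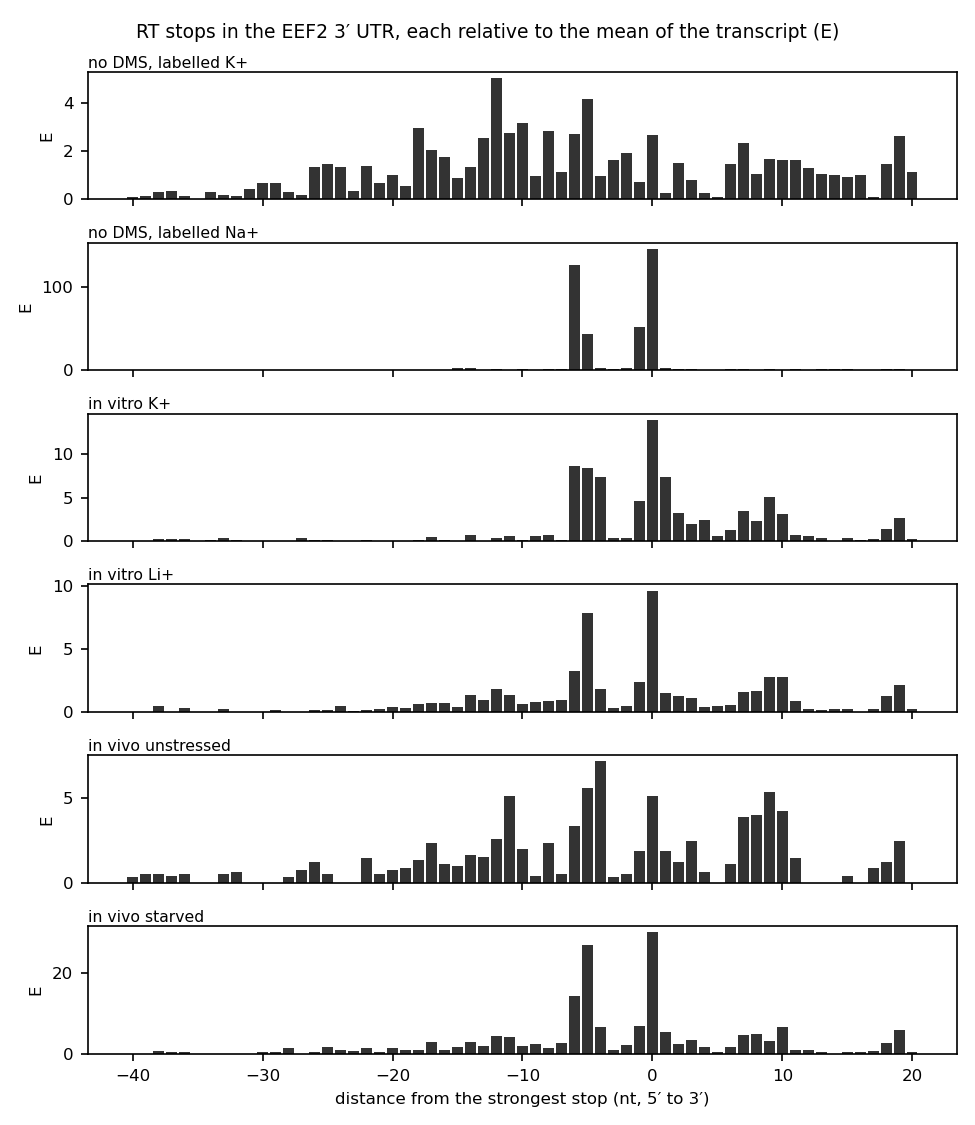
RT stops in the EEF2 3′ UTR relative to the mean of the transcript (E, y axis, with its own scale in each panel) against the distance in nt from the strongest stop (x axis, 5′ to 3′), 1 panel per library. The stops at 0 and at 1, 5 and 6 nt upstream dominate in the library labelled Na+ (147 at 0) and those at 0, 5 and 6 nt upstream stand out in starved cells (29.9 at 0), while in unstressed cells (5.16 at 0) they are of the height of their neighbours.

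EIF4G1 had several such regions. The one shown, 272 nt after the stop codon, had 103, 643, 63, 50, 72 and 31 stops at G over 23 nt, or 1.16, 6.14, 2.16, 1.16, 6.47 and 9.94% of the stops at G of the gene. The intervals in unstressed (5.17 to 8.07%) and starved cells (7.09 to 13.8%) overlapped. Another, 407 nt after the stop codon, had 33, 890, 13, 28, 12 and 20, with 1.08% (0.618 to 1.88%) in unstressed and 6.41% (4.19 to 9.69%) in starved cells. Only 312 stops at G were listed for EIF4G1 in starved cells, and with a transcript mean under 1 stop per nucleotide it did not enter the count of strong stops there.

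In the other regions shown, stops in cells were few. EIF4H, 30 nt after the stop codon, had 26, 823, 79, 88, 13 and 18 stops at G, the coding region of EIF4B had 16, 616, 33, 20, 0 and 5, and PABPC4 had 15, 385, 17, 35, 3 and 7, its strongest stop lying 3 nt before the first base of the start codon. In EIF4H and PABPC4 the shares of stops at G were 0.826 and 0.804% in unstressed and 1.14 and 0.951% in starved cells. A count of 0 for EIF4B in unstressed cells means only that no nucleotide of the region reached the listing minimum of 3, and a difference between unstressed and starved cells was not detectable at this depth. Not every region had the larger share of stops at G in starved cells. In EIF4H 888 nt after the stop codon it was 1.08% in unstressed (17 stops) and 0.699% in starved cells (11 stops), with overlapping intervals of 0.675 to 1.72% and 0.391 to 1.248%. Stops were listed in unstressed cells alone for EIF4G1 100 nt after the stop codon (10 stops) and for EIF5A 280 nt after it (6 stops). In starved cells alone, the deeper library, they were listed in the EIF2S2 3′ UTR (17) and 5′ UTR (8). The same held for the EIF4B 3′ UTR (14) and coding region (5), EIF5B (8), EIF3D (6) and EIF3G (3). It also held for EIF5A 520 nt (4) and EIF4H 714 nt (3) after the stop codon. Of the 6 regions listed in both, only that of EIF4H at 888 nt had the smaller share in starved cells.

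Other strong stops at G differed by less than 2-fold between the libraries without DMS, except 1 in the EIF4E 3′ UTR. Its E was 11.9 with the K+ label and 4.85 with the Na+ label. A nucleotide of the EIF3F 3′ UTR had 360, 360, 57, 66, 41 and 80 stops, with an E of 29.9 and 31.3 in the libraries without DMS, 7.36 in unstressed and 15.6 in starved cells. In the EIF5A 3′ UTR the strongest had 126, 171, 62, 112, 129 and 51, with an E of 17.4 to 39.4, and of 29.1 in unstressed and 33.1 in starved cells. In the EEF1D 5′ UTR the E was 14.5, 13.3, 17.5, 12.9, 13.1 and 12.3. The stops described in EIF3F, EIF5A and EEF1D were present with and without DMS, in vitro and in cells. Those of EIF5A and EEF1D differed little between unstressed and starved cells.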

How the data were processed

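RT stops were analysed in 6 U2OS libraries, grouped by their labels. The authors used SAMtools to discard duplicates and Bowtie to place trimmed reads uniquely, with no mismatch, on transcripts of hg19. The deposited count is the number of RT stops at a nucleotide, listed from 3 upward. The deposited ratio divides that count by a mean which, in the files, covers only the nucleotides of that base. A mean over all nucleotides was therefore recomputed for E from these base-wise means. Positions not listed were counted as 0.

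The 40 members, their role lists, the core TOP list and the 46 other genes of the pathway were chosen with earlier results of these data known. RefSeq names were read through a RefSeq gene table, and 364 of the 15739 transcripts had no symbol. A gene was the sum of its transcripts. GENCODE release 44 on GRCh37 supplied a match for 10608 (96.2%) of the 11031 transcripts with 15 or more listed bases, at a minimum identity of 97% and a minimum coverage of 80%. Regions, sequences and GC content were taken from these. Region ratios needed 50 A/C stops in the coding sequence and in the 3′ UTR, or 20 in the 5′ UTR, in both libraries from cells.

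Sequences of members on chromosome 8 are not shown. Named with values in all libraries were the 5 highest and 5 lowest ratios of shares, the core TOP members, the 3 largest and smallest differences in stops at A or C and changes of the coding sequence to 3′ UTR ratio, and members with a strong stop at G in a library without DMS and at least 20 stops there in vitro. EIF4G2 was added beside EIF4G1 after its values were seen. Shares have 95% Wilson intervals, ratios Poisson intervals and medians order-statistic intervals. Regions of stops at G were merged within 30 nt. GC neighbours lay within 2 percentage points, and length neighbours within 1.41-fold. Simulated data with known shares served to check the calculation. Of the alternatives, 44 were listed at the start and 7 were chosen after seeing the data. Calculations used Python (3.11.15) with scipy (1.17.1), pandas (2.3.3) and numpy (2.4.6), and plots used matplotlib (3.10.9).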

Additional observations from a re-analysis of the deposited data

How the results depend on the processing

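No paired analysis was possible because each condition had 1 library without a replicate number, and for the same reason no library could be left out. The number of members with a changed share was 10 higher (27.8% of all genes) and 13 lower (41.1%). At a fold of 2 the count of higher members was 4 (16.3% of all genes) and of lower members 10 (31.9%). Against genes of like GC content 6 were lower (25.2% of all genes). Against genes of like GC content and length 8 were lower (19.8%), with 8 higher (20.6%). The other alternatives for these counts and for the median ratio stayed within 1.5 times the count or within the interval of the median. The median difference of stops at A or C was -9.48 with unlisted stops estimated, -9.09 with the libraries thinned, -2.88 for A only and -8.54 for C only, always lower in starved cells. The medians of both region ratios stayed within their intervals, which included 0, and changed sign under some alternatives. Counts of strong stops at G followed the threshold. In the order libraries labelled K+ and Na+, in vitro K+ and Li+, unstressed and starved, they were 225, 311, 52, 34, 105 and 166 at an E of at least 5, and 2, 23, 0, 1, 2 and 4 at an E of at least 20. By the deposited ratio they were 26 and 23 in vitro, 102 in unstressed and 50 in starved cells, since its mean is over G alone. This reversed the order of unstressed and starved cells. With a transcript minimum of 0.25 the count in starved cells was 42. With the libraries without DMS exchanged, 38 strong stops at G rather than 1 were at least 2-fold stronger in K+. Depth limits the stops at G in cells, where most regions held fewer than 20, and values in transcripts with near-identical copies. The cause of the other differences between alternatives was not tested.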

Other observations

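The pattern of A/C stops within a transcript was compared between libraries in 37 members with at least 100 A or C nucleotides that reached 10 stops in a DMS library. The median Spearman's rho over these members was 0.60 between unstressed and starved cells, with a range of 0.22 to 0.85. It was 0.77 between the in vitro libraries, 0.46 between unstressed cells and in vitro K+, and 0.54 between starved cells and in vitro K+. These are descriptions over nucleotides of 1 transcript that share library depth and the 3′ weighting described above.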
